A study of Homo sapiens with 3 samples.

Results

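The genes of the mitochondrial ribosomal proteins were taken as all protein-coding genes of GENCODE release 44 on hg19/GRCh37 whose names start with MRPL or MRPS. There were 78 of them, 49 named for the large subunit (MRPL) and 29 for the small subunit (MRPS), on 21 chromosomes, out of 19856 protein-coding genes with a canonical transcript. ETS1, an ETS family transcription factor, was mapped by ChIP-Seq in SCC25 cells, an established line from a tongue squamous cell carcinoma used as a mesenchymal model of head and neck cancer. The labels name no treatment, and the 3 ChIP samples differ by the ETS1 antibody, C20 for 2 of them and 501A for the third. The data are 1 list of 26970 consensus peaks from all 3 samples, given as start and end positions, so the value of a gene here is where a peak lies and how wide it is. The list holds no signal, no summit and no value per sample, and no spread between replicates could be computed.

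The mitochondrial ribosome is the organelle's own translation machine. It makes only the few membrane proteins of the respiratory chain and the ATP synthase that mitochondrial DNA encodes, while its own protein subunits are all encoded in the nucleus and imported. Many of these subunits are homologues of bacterial ribosomal proteins and others are found only in mitochondria. The names are not a perfect guide to the particle: MRPS30 and MRPS18A sit in the large subunit, and MRPS36 is now known as a component of the ketoglutarate dehydrogenase complex. ETS factors bind DNA around a core of GGAA, with CCGGAAGT as the typical full site, and many promoters of housekeeping genes carry such sites close to the transcription start site (TSS).

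Of the 78 genes, 74 had an ETS1 peak at the promoter. The sequences below show what these promoters look like at the letters ETS factors read. Each runs from 120 bases before the TSS through the first 30 transcribed bases, 5′ to 3′ on the strand of the gene, from the hg19/GRCh37 genome, in lower case, with capitals for CCGGAA, or CCGGAAGT where the match extends to it, and for AAGATGGC, the word of the zinc finger factor YY1, on either strand (ACTTCCGG, TTCCGG and GCCATCTT on the opposite one). The first 6 have a peak and are those with CCGGAAGT in this stretch whose match lay nearest the peak midpoint. The last pair have no peak midpoint in the promoter window.
MRPL27, chr17:48450516-48450665, minus strand: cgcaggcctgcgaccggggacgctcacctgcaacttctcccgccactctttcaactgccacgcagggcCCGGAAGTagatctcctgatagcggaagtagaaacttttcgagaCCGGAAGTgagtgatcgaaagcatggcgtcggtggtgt
MRPL47, chr3:179322397-179322546, minus strand: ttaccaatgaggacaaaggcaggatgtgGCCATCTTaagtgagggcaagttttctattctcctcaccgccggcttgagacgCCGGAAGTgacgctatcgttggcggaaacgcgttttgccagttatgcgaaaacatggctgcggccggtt
MRPL52, chr14:23298976-23299125, plus strand: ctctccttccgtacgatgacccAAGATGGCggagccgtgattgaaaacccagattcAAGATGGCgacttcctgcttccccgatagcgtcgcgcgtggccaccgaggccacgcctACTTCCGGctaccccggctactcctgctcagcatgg
MRPS22, chr3:139062742-139062891, plus strand: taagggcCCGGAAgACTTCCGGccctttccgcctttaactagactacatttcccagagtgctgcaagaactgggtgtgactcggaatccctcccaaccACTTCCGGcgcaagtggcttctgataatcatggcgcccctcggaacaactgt
MRPL20, chr1:1342644-1342793, minus strand: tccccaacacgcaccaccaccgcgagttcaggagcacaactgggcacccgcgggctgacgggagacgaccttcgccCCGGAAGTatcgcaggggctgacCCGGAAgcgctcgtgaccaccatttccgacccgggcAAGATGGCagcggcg
MRPL3, chr3:131221786-131221935, minus strand: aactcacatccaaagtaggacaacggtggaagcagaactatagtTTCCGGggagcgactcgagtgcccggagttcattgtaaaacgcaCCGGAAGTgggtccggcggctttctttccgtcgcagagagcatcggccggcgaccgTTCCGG
MRPS34, chr16:1823106-1823255, minus strand: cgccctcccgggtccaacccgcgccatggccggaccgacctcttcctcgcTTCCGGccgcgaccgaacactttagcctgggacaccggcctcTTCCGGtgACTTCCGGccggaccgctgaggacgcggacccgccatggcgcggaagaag
MRPS9, chr2:105654407-105654556, plus strand: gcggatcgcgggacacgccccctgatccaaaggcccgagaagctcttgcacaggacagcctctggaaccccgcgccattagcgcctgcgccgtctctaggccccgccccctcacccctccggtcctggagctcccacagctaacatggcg
MRPL27 and MRPL20, with homologues in the bacterial large subunit, each carried CCGGAA at 2 places in the printed stretch, and MRPL3, also such a homologue, at 3. MRPL47 and MRPL52 carried it once. MRPS22, a mitochondria-specific small subunit protein, carried it at 3 places, as did MRPS34, which is also mitochondria-specific. MRPS9, a homologue of a bacterial small subunit protein, had none. The letters are a description of the reference genome, not evidence of a bound site.

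A peak was assigned to the promoter, called the basal window, if its midpoint lay from 5 kb upstream to 1 kb downstream of the canonical TSS. By this rule 74 of 78 genes had a basal peak, or 94.9% (95% Wilson interval 87.5 to 98.0%), and the share over all protein-coding genes was 56.0%. With the midpoint required within 500 bp of the TSS, 70 of 78 genes had a peak, or 89.7% (81.0 to 94.7%), beside 46.8% of all genes. Both intervals lay above the share of all genes. They cover counting error only and treat genes as separate draws, although neighbouring genes can share a peak, and no test across samples could be made on a pooled list.

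MRPL and MRPS genes gave overlapping intervals. A basal peak was found at 47 of 49 MRPL genes (95.9%, 86.3 to 98.9%) and at 27 of 29 MRPS genes (93.1%, 78.0 to 98.1%). Proteins with bacterial homologues had one at 45 of 46 genes and mitochondria-specific proteins at 28 of 31, and their intervals overlapped widely (88.7 to 99.6% and 75.1 to 96.7%). Cytosolic ribosomal protein genes, which encode the ribosome outside the organelle, gave a close share, with 84 of 89 (94.4%, 87.5 to 97.6%). They were taken by name, and the pattern also lets in paralogues, such as names ending in L. Some subunits of respiratory complex I are made on the mitochondrial ribosome. Its nuclear genes, taken by name (NDUFA, NDUFB, NDUFC, NDUFS or NDUFV with a number), had a basal peak at 34 of 38 (89.5%, 75.9 to 95.8%). A name does not prove that the protein sits in the complex.

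**Figure D1:**
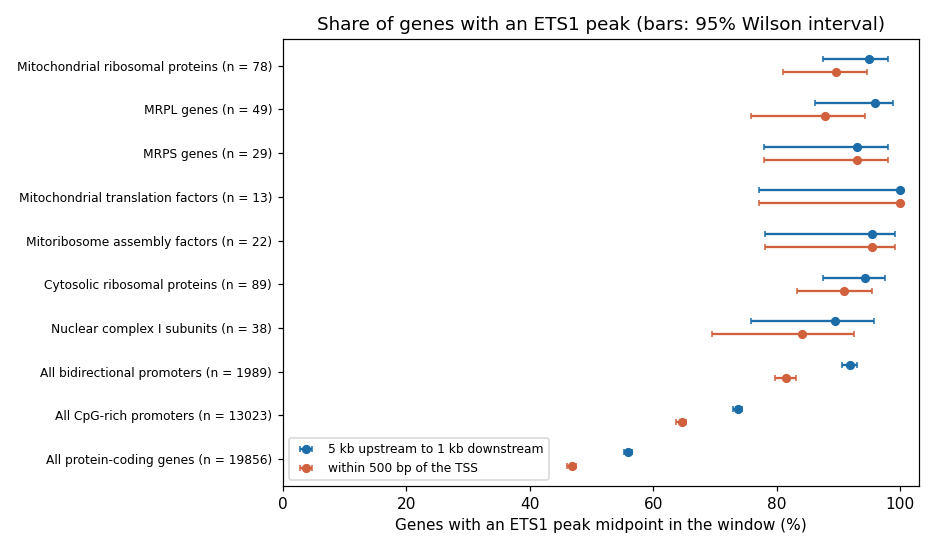
Percent of genes (horizontal axis) with an ETS1 peak midpoint from 5 kb upstream to 1 kb downstream of the TSS (blue) or within 500 bp of it (orange), by gene group, with 95% Wilson intervals as bars. The mitochondrial ribosomal protein genes (94.9 and 89.7%) lie near the cytosolic ribosomal protein genes (94.4 and 91.0%), to the right of all CpG-rich promoters (73.7 and 64.6%) and of all protein-coding genes (56.0 and 46.8%).

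Most of these promoters were CpG-rich, the usual type of housekeeping genes. A promoter from 250 bases before to 50 after the TSS counted as CpG-rich if its GC content was over 50% and its ratio of observed to expected CpG over 0.6, and 74 of the 78 were, or 94.9%, beside 65.6% of all genes. Among CpG-rich promoters alone, 70 of 74 genes had a basal peak (94.6%, 86.9 to 97.9%), and the share over all 13023 CpG-rich promoters was 73.7%. The 4 that were not CpG-rich, named after their values were seen, were MRPL11, MRPL48, MRPL54 and MRPS22. Each of them had a basal peak, while 22.2% of all promoters that were not CpG-rich had one. MRPL54 and MRPS22 missed only the GC limit (47.3 and 45.7%), with CpG ratios of 0.726 and 0.705. MRPL11 and MRPL48 were below the CpG limit (0.402 and 0.543). The higher share of the ribosomal protein genes was thus present on both sides of this rule, though 4 genes are few and not all of them were low in CpG.

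At each of the 74 genes the nearest basal peak covered the TSS itself, as it did at 92.1% of all genes with a basal peak. The midpoints fell evenly around the start, 35 upstream and 39 downstream. Their distance to the TSS had a median of 126.5 bp (quartiles 54.25 and 245.75 bp). For all genes with a basal peak the median was 187 bp (86 and 359.75 bp). It was 133 bp for cytosolic ribosomal protein genes and 141.5 bp for complex I genes. Among the 74 genes the midpoint lay within 100 bp of the TSS at 32 and within 250 bp at 56, counts that were not made over all genes. The closest were those of MRPL30 and MRPS28, both 2 bp downstream, MRPL35, 3 bp downstream, MRPL57, 4 bp downstream, and MRPS23, 4 bp upstream. Midpoints over 500 bp away were found at 4 genes, MRPL14 (520 bp upstream), MRPL41 (515 bp downstream), MRPL23 (547 bp downstream) and MRPL40 (664 bp upstream). The other 70 of the 74 lay within 500 bp, beside 9288 of the 11110 genes with a basal peak in the whole set. By annotation, 35 midpoints were upstream of the gene, 12 in the 5′ UTR of exon 1, 10 in the coding part of exon 1, 15 in intron 1 and 2 in the coding part of exon 2. This split was not made over all genes.

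**Figure D2:**
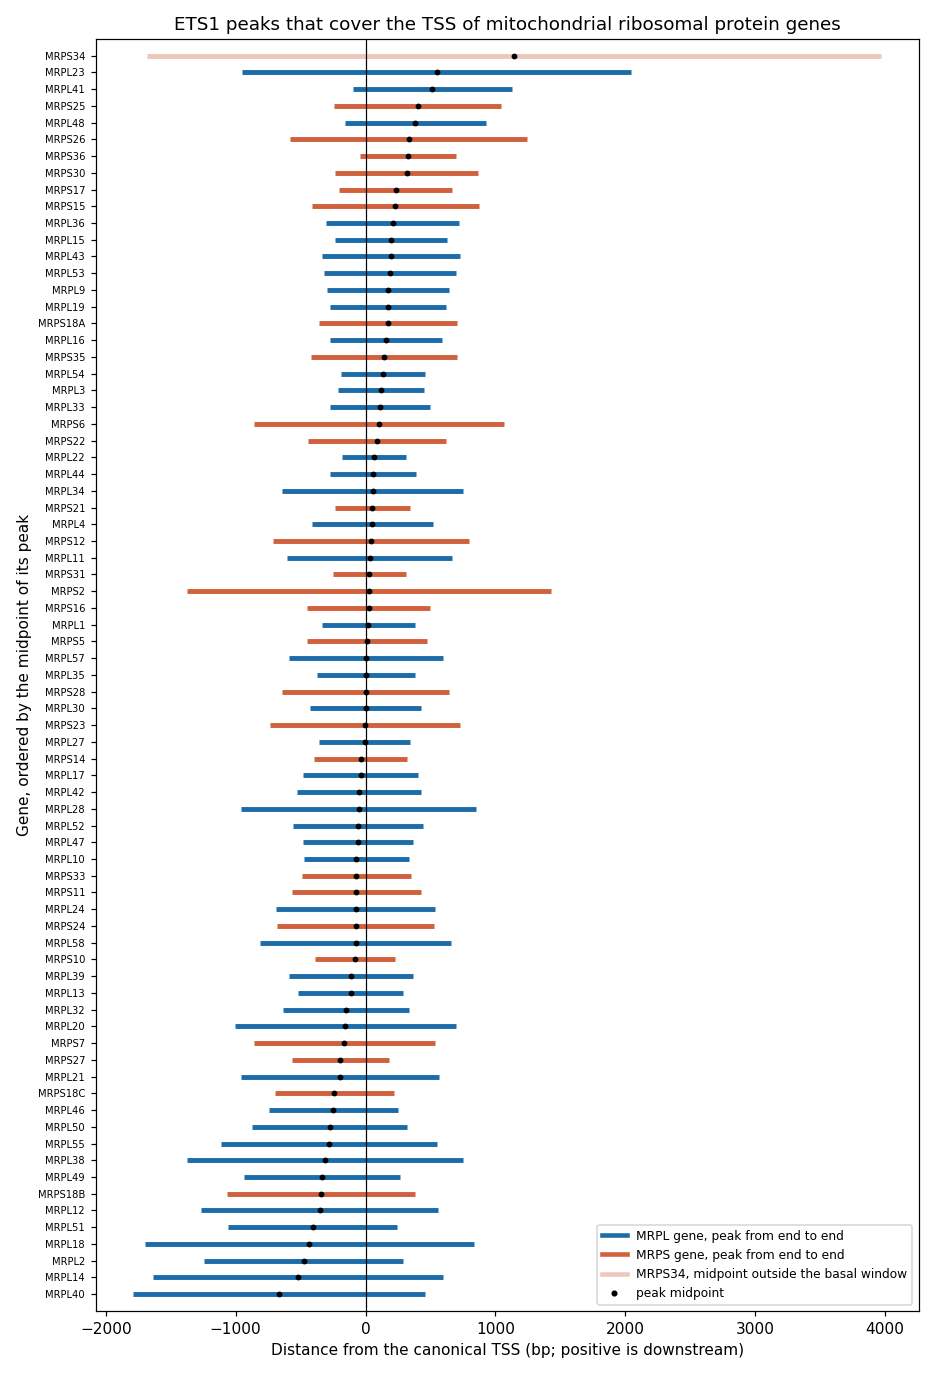
ETS1 peaks that cover the TSS of 75 mitochondrial ribosomal protein genes, 1 gene per line, by distance from the canonical TSS in bp (horizontal axis, positive downstream). Bars run from the start to the end of the peak, blue for MRPL and orange for MRPS genes, and black points mark midpoints. Nearly all midpoints lie within 500 bp of the TSS, and the pale bar of MRPS34 runs far past the others, with its midpoint 1144 bp downstream.

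The peaks at these genes were narrow compared with other promoters. Widths ran from 492 to 2994 bp, with a median of 1042.5 bp and quartiles of 858 and 1397.5 bp. Over all genes with a basal peak the median was 1336 bp and the quartiles were 991 and 1814 bp. With midpoints within 500 bp of the TSS only, the medians were 1008 and 1291 bp. Cytosolic ribosomal protein genes had a median of 1250.0 bp and complex I genes of 1090.0 bp. The quartile ranges overlapped, so a single gene could not be told from other promoters by its width. The 5 narrowest peaks were at MRPL22 (492 bp), MRPS31 (565 bp), MRPS21 (584 bp), MRPS10 (619 bp) and MRPL54 (647 bp). The 5 widest were at MRPL23 (2994 bp), MRPS2 (2801 bp), MRPL18 (2538 bp), MRPL40 (2251 bp) and MRPL14 (2228 bp), and all of these but MRPL23 have the TSS of another gene under the same peak.

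**Figure D3:**
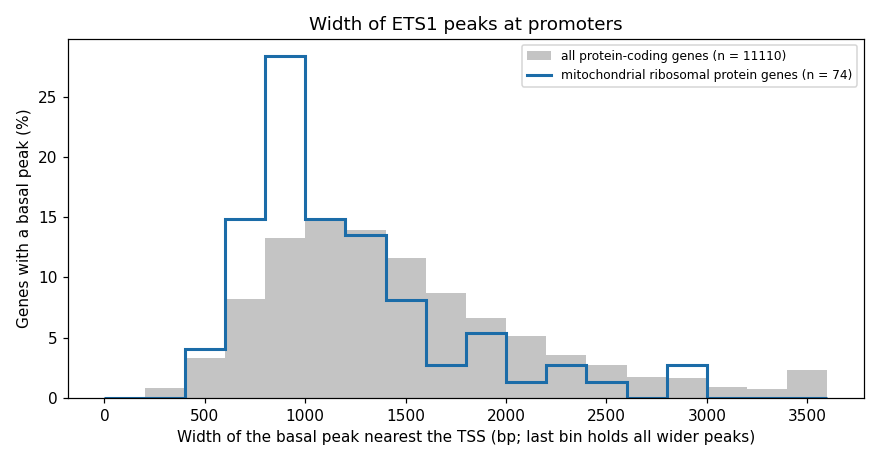
Width of the basal peak nearest the TSS in bp (horizontal axis, bins of equal width) for 74 mitochondrial ribosomal protein genes (blue line) and 11110 protein-coding genes (grey), as percent of the genes of each set that have a basal peak (vertical axis). The blue line stands highest at widths just under 1000 bp and the grey area peaks further right, with medians of 1042.5 and 1336 bp.

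The 4 genes without a basal peak by the midpoint rule were not alike. MRPS34, on chromosome 16, lay just outside the window: the peak at chr16:1819164-1824818 was 5655 bp wide and covered its TSS at position 1823135, but its midpoint was 1144 bp downstream, in the gene body. The same peak covered the TSSs of EME2 and NME3. Counting it, 75 of 78 TSSs were covered by a peak (96.2%, 89.3 to 98.7%). On the inner side of the window's downstream edge the closest nearest-peak midpoint was that of MRPL23, at 547 bp.

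The other 3, MRPL37, MRPL45 and MRPS9, had no peak within 50 kb, which is 3.85% of the 78 genes (1.32 to 10.7%) beside 20.4% of all genes. MRPL37 encodes a mitochondria-specific protein, and the nearest peak midpoint was 53790 bp away. For MRPS9 the distance was 68225 bp. For MRPL45, a protein at the exit of the ribosome's tunnel facing the inner membrane, it was 54709 bp. Around MRPL45 only 51.9% of the 50-base words within 500 bp of the TSS occur once in the genome, and reads were kept only if they mapped to 1 locus, so reads from much of this promoter could not be placed. All but 2 genes, MRPL45 and MRPS17 (85.0%), had at least 90% of such words unique. How far this bears on the missing peak at MRPL45 was not tested, and the other pair without a peak were above that limit.

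More than 1 basal peak was found at 8 genes (10.3%, 5.29 to 19.0%), beside 5.58% of all genes. MRPL36, a small homologue of a bacterial large subunit protein, had 3, with midpoints 209 bp downstream and 643 and 1633 bp upstream. The last covered the TSS of NDUFS6, a complex I subunit gene. The genes with 2 were MRPL18, MRPL22, MRPL35, MRPL49, MRPL52, MRPL54 and MRPS24. In 4 of these the second peak lay over the TSS of a neighbour, namely GEMIN5 beside MRPL22, IMMT beside MRPL35, ZNHIT2 beside MRPL49 and APBA3 beside MRPL54. IMMT encodes the core organizer of mitochondrial cristae. The second peaks of MRPL18 (2032 bp upstream), MRPS24 (3755 bp upstream) and MRPL52 (4982 bp upstream, 664 bp wide) covered no other coding TSS. The peaks of MRPL52 and of MRPL49 (4949 bp upstream) were those nearest inside the upstream edge of the window.

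Many of these genes start close to a neighbour on the opposite strand. A protein-coding TSS on that strand lay within 1 kb, on either side, at 27 of 78 genes (34.6%, 25 to 45.7%). The share over all genes was 10%. Such promoters are called shared here, by distance only. At MRPS34 the other TSS, of EME2, lay 324 bp downstream, and MRPL54 and APBA3, 990 bp apart, had separate peaks. A close share of complex I genes had such a TSS, 36.8%, and a lower share of cytosolic ribosomal protein genes, 16.9%. Among the 78 genes the pairs with the shortest distance between starts were MRPL27 and EME1 (45 bp), MRPL43 and TWNK (46 bp), MRPL21 and IGHMBP2 (59 bp), MRPL14 and TMEM63B (102 bp), and MRPL57 and SKA3 (106 bp). TWNK is the helicase of mitochondrial DNA replication, whereas EME1 belongs to a DNA repair nuclease. MRPL46 and MRPS11 are each other's neighbour, 320 bp apart on chromosome 15, and share 1 peak at chr15:89010369-89011364, 996 bp wide. The 74 genes therefore had 73 distinct nearest peaks.

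Peaks were found at shared and at unshared promoters. Of the 27 shared promoters 23 had a peak within 500 bp (85.2%, 67.5 to 94.1%), close to the 81.5% of all such promoters in the genome. Of the 51 others 47 had one (92.2%, 81.5 to 96.9%), beside 42.9% of all genes without a shared promoter. Where promoters were shared, the midpoints lay toward the neighbour, with a median 163 bp upstream of the TSS, and at the others the median was 52 bp downstream. All genes with a basal peak went the same way, with medians 118 bp upstream at shared promoters and 73 bp downstream at the others. In 14 of 74 genes (18.9%, 11.6 to 29.3%) another gene's TSS was nearer to the midpoint than the member's own, beside 12.9% of all genes with a basal peak. That share was 32.4% in complex I genes and 5.95% in cytosolic ribosomal protein genes. At 26 of the 74 genes the peak covered at least 2 coding TSSs, a count that was not made over all genes. Which gene such a peak belongs to cannot be told apart.

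The words were then counted in the 300 bases from 250 before to 50 after each TSS, on both strands. CCGGAA stood in 47 of 78 promoters (60.3%, 49.2 to 70.4%), beside 22.8% of all promoters of the same length. Of all genes with a peak within 500 bp, 36.5% had it, and of all CpG-rich promoters, 30.2%. Cytosolic ribosomal protein genes had a close share, 57.3%, and complex I genes 31.6%. In windows of 200 bases at the peak midpoints the word was found at 31.1% of the genes with a basal peak, beside 20% of all genes with one, a smaller difference. The longer forms, each of which holds the shorter, went the same way, with CCGGAAG in 41.0% against 14.2% and CCGGAAGT in 15.4% against 6.17%. Among all genes with a peak within 500 bp, 24.6% had CCGGAAG, below the members' interval (30.8% at its lower end). CCGGAAGT was in 11.6% of those genes, inside the members' interval (9.03% at its lower end). The full site was thus not clearly more common than at other promoters with a peak. GGAA alone is so common that it stood in 98.7% of the members' promoters and 94.8% of all promoters. Among the members it was missing only from MRPS6, which had a peak. MRPL27 and MRPS22 were the genes with CCGGAAGT more than once, 2 matches each.

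The share was also higher for a second word. AAGATGGC, typical of YY1, was found in 22 of 78 promoters (28.2%, 19.4 to 39.0%), beside 4.06% of all promoters and 6.82% of those with a peak within 500 bp. The share was 23.7% in complex I genes and 14.6% in cytosolic ribosomal protein genes. Both words together stood in 12 promoters (15.4%, 9.03% at the lower end of the interval), beside 1.41% of all. Each word alone was also more common in the members, so this count does not show that the words pair up. The words can overlap by 2 bases, but their matches in these 12 promoters lay apart. The NRF1 word GCATGCGC, of a known activator of nuclear genes for mitochondria, was in 8.97% (4.42 to 17.4%) against 4.27%. It was in 5.97% of CpG-rich promoters and 6.56% of genes with a peak within 500 bp, both inside that interval. GGGCGG, bound by SP factors, was in 60.3% against 61.5%, and CCAAT, bound by NF-Y, in 28.2% against 36.0%, so neither had a higher share than in all promoters. No test was run on these shares.

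**Figure D4:**
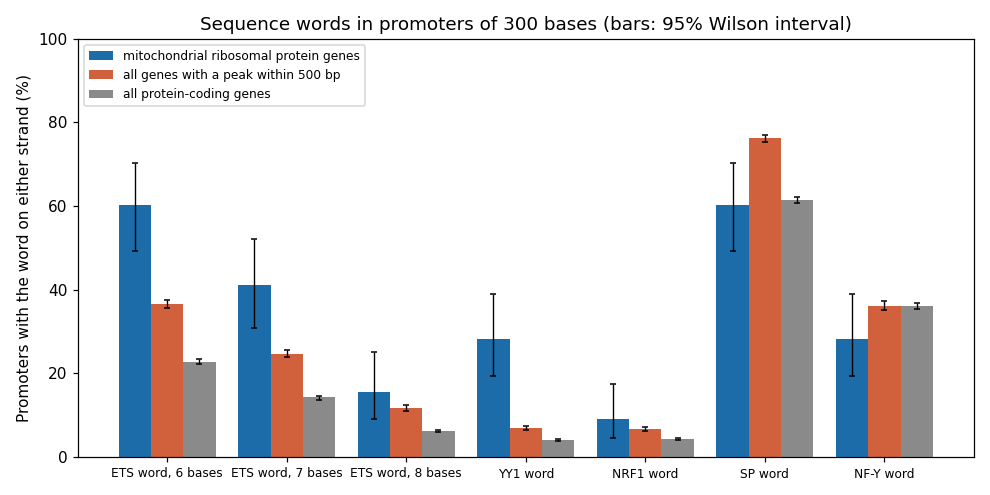
Percent of promoters of 300 bases that hold each word on either strand (vertical axis), for mitochondrial ribosomal protein genes (blue), all genes with a peak within 500 bp (orange) and all protein-coding genes (grey), with 95% Wilson intervals. The ETS word of 6 bases (60.3, 36.5 and 22.8%) and the YY1 word (28.2, 6.82 and 4.06%) are higher in the blue bars, and the SP word is not (60.3, 76.2 and 61.5%).

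The matches in the members' promoters lay close to the TSS, which is position 1 here, but the searched stretch itself surrounds the TSS. Positions and strands of the matches were not counted over all promoters, so neither can be called particular to these genes. The 75 CCGGAA matches in 47 promoters had a median position of -32, and 62 of them lay within 100 bases of the TSS. They were split between the strand of the gene (34) and the opposite one (41). The 23 AAGATGGC matches lay further down, at a median position of 14, and 19 were on the strand of the gene. This word contains ATG, and in 14 of the 22 genes that ATG was the annotated start codon, as it was in 328 of all 806 genes with the word (40.7%). A word that spans the start codon is also part of the protein's code, and the 2 roles cannot be told apart here.

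**Figure D5:**
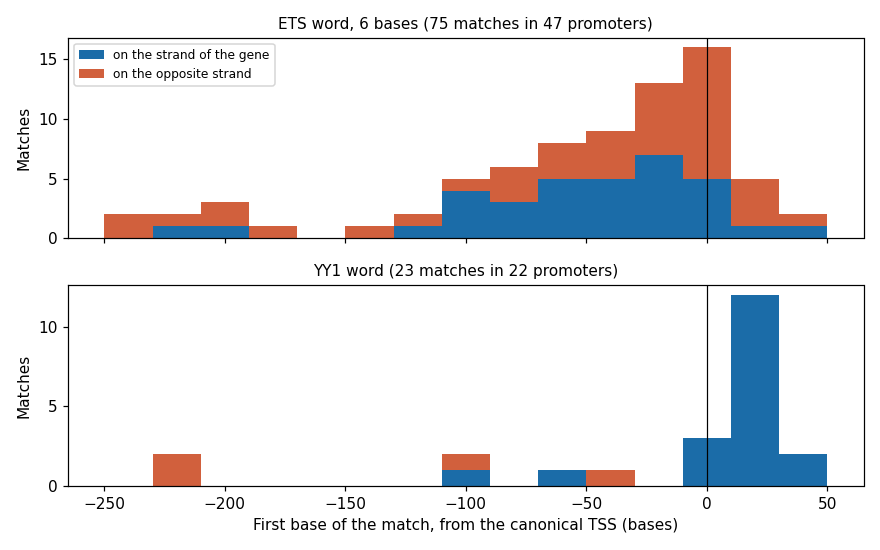
Number of matches (vertical axis) by position of the first base of the match from the canonical TSS (horizontal axis, bases), on the strand of the gene (blue) and the opposite one (orange), for the ETS word of 6 bases above and the YY1 word below. In the members' promoters ETS matches gather just upstream of the TSS on both strands, with a median at -32. YY1 matches gather just downstream on 1 strand, with a median at 14. Positions over all promoters were not counted.

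Peaks were found with and without the word. A peak within 500 bp was present at 44 of 47 genes with CCGGAA in the promoter (93.6%, 82.8 to 97.8%) and at 26 of 31 without it (83.9%, 67.4 to 92.9%), intervals that overlap. In the wider basal window the counts were 46 of 47 and 28 of 31, and MRPS34 was the single gene with the word and no basal peak. Over all protein-coding genes a peak within 500 bp was found at 74.8% of those with CCGGAA and at 38.5% of those without. All 72 matches in promoters with a basal peak lay inside that peak, at a median of 137 bp from its midpoint, and since each of these peaks covers the TSS and is wider than the promoter, most positions in the promoter lie inside it.

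Beyond the promoter the surroundings were moderately rich in peaks. A further peak, in the gene body or within 50 kb of the TSS, was found at 61 of 78 genes (78.2%, 67.8 to 85.9%), beside 65.8% of all genes. The median was 2 further peaks against 1. Cytosolic ribosomal protein genes had a further peak at 84.3% and complex I genes at 89.5%. In the gene body itself the members' share was lower, at 9 of 78 genes (11.5%, 6.19 to 20.5%) beside 24.9% of all genes. It was 11.2% in cytosolic ribosomal protein genes and 18.4% in complex I genes. The length of the genes was not adjusted for. The most further peaks were around MRPL24 and MRPL53, 9 each, MRPL38, 8, and MRPL20 and MRPL28, 7 each. Of the 194 further peaks 97 covered the TSS of another coding gene (50.0%, 43.0 to 57.0%), so many lay over the promoters of neighbours. The same share was not computed for the further peaks of all genes, so it cannot be called high or low.

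Peaks were sorted by P-value before the IDR step, but the order of the final list is not given in the sources used here. The peaks of the ribosomal protein genes stood toward its beginning, at a median line of 5191.5 beside 10161.5 for all genes with a basal peak, and 62 of 74 (83.8%, 73.8 to 90.5%) were among the first 13485 lines, beside 63.1%. The earliest were those of MRPL24 (line 29), MRPL48 (line 219) and MRPL50 (line 311), and the last was that of MRPS6 (line 25571). For cytosolic ribosomal protein genes the share among the first 13485 lines was 98.8%.

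A basal peak was also common at listed genes of other parts of mitochondrial translation, beside the 56.0% of all genes. The lists were made by hand and leave out other parts, such as the aminoacyl-tRNA synthetases. Mitoribosomal proteins with other names all had a basal peak, namely DAP3 (midpoint 387 bp upstream), a GTP-binding small subunit protein, PTCD3 (261 bp upstream), AURKAIP1 (439 bp upstream), CHCHD1 (54 bp downstream) and GADD45GIP1 (235 bp downstream). With 5 of 5 the interval runs from 56.6 to 100%, and of these 5 promoters only that of AURKAIP1 held CCGGAA. All 13 translation factors had one too (77.2 to 100%), each within 500 bp of the TSS. They were the initiation factors MTIF2 and MTIF3, the formyltransferase MTFMT, the elongation factors TUFM, TSFM, GFM1 and GUF1, the release and rescue factors MTRF1, MTRF1L and MTRFR, the recycling factors MRRF and GFM2, and TACO1, an activator of cytochrome oxidase translation. MTIF3 had the midpoint closest to its TSS, 16 bp downstream, and MTFMT the farthest, 307 bp downstream. Of the assembly and rRNA modification factors 21 of 22 had a basal peak (95.5%, 78.2 to 99.2%), the exception being MPV17L2, with the nearest midpoint 19525 bp away. The 4 genes of mitochondrial transcription (POLRMT, TFAM, TFB2M and TEFM) each had one.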

How the data were processed

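ETS1 ChIP-Seq was carried out in 3 samples of SCC25 cells with the C20 (n = 2) and 501A (n = 1) antibodies. The authors aligned single-end reads to hg19 (Bowtie 1.1.1 and SAMtools 1.3 in the submitters' processing notes), discarded reads that fit several loci, used MACS2 with a merged input and deposited 1 IDR consensus list of start and end positions, pooled over the samples. It carries no counts or signal, so depth per sample is not known from it. Positions were joined to canonical TSSs of GENCODE 44 on GRCh37 with Python 3.11.15, pandas 2.3.3 and pysam 0.24.0, each peak by its midpoint. Shares have 95% Wilson intervals (counting error only) beside the same share over 19856 genes (307 of 20163 coding genes had no canonical transcript or a repeated name). The assignment was checked on simulated data. Words were searched on both strands of GRCh37. No test was made.

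Named genes were those without a basal peak, with several, with the 5 widest, 5 narrowest and 5 most central peaks, with midpoints over 500 bp away or nearest the window's edges, with CCGGAAGT more than once, with most peaks within 50 kb (counted without basal peaks, since ties among all peaks exceeded 5), the 5 closest promoter pairs, and the lists of other mitoribosomal proteins and translation factors. The members and lists were chosen with earlier results of these data known.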

Additional observations from a re-analysis of the deposited data

How the results depend on the processing

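The median distance to the TSS went from 126.5 to 77.0 bp when any annotated TSS counted (187 to 111 bp for all genes), and to 115 bp with only the first 13485 lines. The median width was 1022 bp in those lines. The shares given next left their 95% intervals. Counting any base of a peak instead of its midpoint gave 96.2% of the genes within 500 bp (53.8% of all genes). With only the first 13485 lines of the list, 79.5% of the genes had a basal peak and 75.6% one within 500 bp (36.4 and 30.3% of all genes), and a further peak was found at 64.1% (50.1%). With only peaks at least as wide as the list's median of 969 bp, the shares fell to 57.7 and 50.0% (43.5 and 35.7%), 29 genes losing their basal peak. CCGGAA was found in 31.1% of the 200-base windows at the peak midpoints (20% over all genes with a basal peak). With GGAA instead the share of promoters was 98.7%, with CCGGAAG it was 41.0% and with CCGGAAGT 15.4%. The members' share stayed above that of all genes in each of these settings. No paired analysis was possible because the list is pooled and no test was made, and no replicate could be left out. A gene without a peak may have a site that did not reach the consensus threshold at this depth.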

Other observations

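The genome also holds 79 pseudogenes named after these genes, copies that mostly arose from spliced transcripts without the promoter. A basal peak was found at 5 of them (6.33%, 2.73 to 14.0%) and a peak within 500 bp at 2 (2.53%, 0.697 to 8.77%). None of the 76 processed pseudogenes had a peak within 500 bp, which allows a share of up to 4.81% at the upper end of the interval. The 2 with a peak were MRPS31P4 and MRPS31P5 on chromosome 13, transcribed copies of MRPS31 and 2 of the 3 unprocessed pseudogenes. The midpoint lay 63 bp upstream of the annotated start of MRPS31P4, in a peak of 497 bp, and 166 bp upstream of that of MRPS31P5, in a peak of 773 bp. At MRPS31 itself the midpoint was 29 bp downstream and the peak 565 bp wide. Of the 50-base words around the starts, 95% and 88.3% occur once in the genome by exact match. A word that differs from another copy by a single base counts as unique here. How many reads could be placed at 1 copy was not tested. These genes were named after their values were seen.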
